A study of Mus musculus with 4 samples.

Results

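The cells described here are alveolar type 2 cells of the mouse lung in which at most 1 of 7 genes (Sprr1a, Areg, Cftr, Chia1, Cox6a2, Myh7 and Kcnj2, called the rule genes below) was detected. Detection means at least 1 UMI, a molecular tag that counts each captured transcript once. Barcodes needed 500 or more genes and no more than 10% mitochondrial UMIs, and counted as type 2 cells where Sftpc made up at least 5% of UMIs, Lamp3 had at least 1 UMI, Scgb1a1 made up under 5% of UMIs, and Col1a2 and Ptprc had none. The rule found 178 cells among 11118 barcodes, of which 9391 passed the gene and mitochondrial limits and 1425 were type 2 cells. They were proposed as the main state of type 2 cells, but they made up 12.5% of the type 2 cells (95% Clopper-Pearson interval 10.8 to 14.3%). The data go against that name, and the cells are called rule-low type 2 cells here, in contrast to the 1247 rule-high type 2 cells with UMIs of 2 or more rule genes.

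The lungs were those of mice aged about 8 weeks that had been given tamoxifen, heterozygous for a tamoxifen-activated Cre at the Gli1 locus (Gli1CreERT2/WT) and for the Rosa26mTmG reporter, and lung cells were sorted as negative for CD45, a leukocyte protein, and CD31, an endothelial protein. The labels give the strain as B6D2F1/J in some fields and C57BL/6J in another, and name neither the number of animals nor a group without tamoxifen. The 4 samples have the same labels, 65156149 to 74901791 reads each, and 1 matrix whose barcodes carry no sample name, so all cells count as 1 sample. Without replicates no test was possible, so no p-value is given, and every interval is a 95% interval for counting error only. All cells were compared with other cells of the same matrix, and the same counts chose them, so each value is a description. The main comparison was with 305 barcodes of non-type 2 epithelium (Epcam at least 1 UMI, Sftpc under 5% of UMIs, and no Col1a2 or Ptprc UMI), which held 75 cells of an alveolar type 1 set and 180 of a ciliated set (each with 3 or more markers of that type detected), 46 of a club set (Scgb1a1, the club cell secretoglobin, at 5% of UMIs or more) and 4 of no set. A fibroblast set of 6494 barcodes (no Epcam, Col1a2 and 3 or more fibroblast markers) served to gauge free RNA.

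Alveolar type 2 cells are the cuboidal cells of the alveolar wall that make pulmonary surfactant, a film of phospholipid and surfactant proteins that lowers surface tension. They assemble it in lamellar bodies, secretory organelles that ABCA3 loads with lipid, and they feed the process with their own fatty acid and phospholipid synthesis. They also display antigen on MHC class II, secrete antimicrobial proteins, and act as progenitors that renew themselves and give rise to the thin alveolar type 1 cells. The transcription factors NKX2-1 and C/EBP alpha are known to act on surfactant and lamellar body genes.

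The promoters of 2 surfactant genes and of 2 other genes that stood high in rule-low type 2 cells are shown because they hold the letters that these factors are known to bind. The windows are the 250 bases before the gene's start in RefSeq on build GRCm38.p6, read 5′ to 3′ on the gene's strand. Capitals mark CTCAAG, the core bound by NKX2-1, in Sftpa1 at chr14:41131538-41131787 (plus strand) and Sftpb at chr6:72304360-72304609 (plus strand), and TTGCNNAA, a C/EBP motif, in Slc34a2 at chr5:53049103-53049352 (plus strand) and Lcn2 at chr2:32387740-32387989 (minus strand). Both strands were searched, and the motifs did not overlap in these windows.
Sftpa1: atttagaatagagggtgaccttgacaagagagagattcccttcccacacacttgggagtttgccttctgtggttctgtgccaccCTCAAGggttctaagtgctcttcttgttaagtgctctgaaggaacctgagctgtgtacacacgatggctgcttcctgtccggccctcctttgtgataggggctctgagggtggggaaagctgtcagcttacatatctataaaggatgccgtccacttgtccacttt
Sftpb: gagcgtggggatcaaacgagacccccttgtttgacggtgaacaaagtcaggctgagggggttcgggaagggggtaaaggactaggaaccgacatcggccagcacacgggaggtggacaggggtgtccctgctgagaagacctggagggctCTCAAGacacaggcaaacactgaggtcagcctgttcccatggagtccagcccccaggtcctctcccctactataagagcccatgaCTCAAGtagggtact
Slc34a2: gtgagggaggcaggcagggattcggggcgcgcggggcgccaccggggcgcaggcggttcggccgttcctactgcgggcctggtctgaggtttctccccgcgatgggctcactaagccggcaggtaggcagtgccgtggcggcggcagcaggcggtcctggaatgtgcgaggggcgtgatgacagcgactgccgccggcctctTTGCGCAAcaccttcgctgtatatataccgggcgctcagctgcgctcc
Lcn2: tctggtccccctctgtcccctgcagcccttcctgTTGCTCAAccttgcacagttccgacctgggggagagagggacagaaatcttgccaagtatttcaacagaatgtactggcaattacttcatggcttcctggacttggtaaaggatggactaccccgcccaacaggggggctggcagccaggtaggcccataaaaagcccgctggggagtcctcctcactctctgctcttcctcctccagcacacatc
The core starts at -166 in Sftpa1 and at -100 and -15 in Sftpb, counted from the gene's start. The C/EBP letters start at -48 in Slc34a2 and at -216 in Lcn2. Of 21 genes looked up, 16 had a window, 3 of them held the NKX2-1 core and 5 held the C/EBP letters. Il33, among those 5, held the letters only in a window that is not the one used for the shares over all genes, which take 1 window a gene. Over 27025 genes with a window, 13.6% held the core and 9.55% held the C/EBP letters. Sftpc and Sftpd were not among the matched genes. A match describes letters in the window, not a bound site.

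Detection of the rule genes was graded over the type 2 cells rather than split into 2 groups. The numbers of type 2 cells with 0 to 6 rule genes were 37, 141, 275, 355, 356, 192 and 69, with a single broad peak at 3 and 4 genes. The cutoff therefore fell on the rising side of that peak, with 141 cells just inside it and 275 just outside. Depth moved with it, since the median UMIs per cell were 6768, 8439, 8559, 9541, 9810.5, 10248.5 and 10961 over the same steps. The rule does not separate fewer captured transcripts from lower expression of the rule genes. Ratios between the type 2 sets are also given at equal depth, but cells were thinned after the rule had assigned them at full depth. Those ratios therefore cannot make that separation either.

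**Figure D1:**
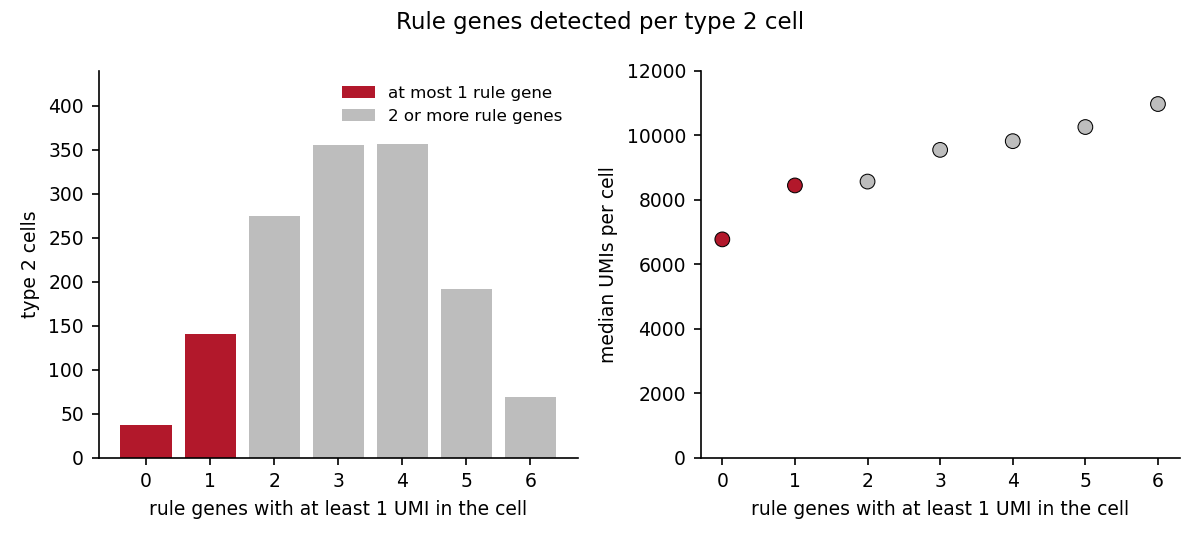
Number of type 2 cells (left) and their median UMIs per cell (right) by the number of rule genes with at least 1 UMI, with rule-low type 2 cells coloured and rule-high ones in grey. The cells form 1 peak at 3 and 4 rule genes, and the median depth is 6768 UMIs at 0 genes and 10961 at 6.

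Among the rule genes, Chia1, an acidic chitinase, had UMIs in 38.8% of rule-low type 2 cells, against 84.8% of rule-high ones and 1.06% of a fibroblast marker set. Cox6a2, a muscle-type cytochrome oxidase subunit, had UMIs in 12.9% and 66.5% of the type 2 sets in the same order, and Myh7, a cardiac and slow-muscle myosin, in 12.4% and 62.6%. Of the 141 rule-low cells with a single rule gene, 69 had Chia1, the most of any rule gene. Areg, an EGF receptor ligand, was found in 7.87% of rule-low and 55.8% of rule-high cells, and Cftr, an apical chloride channel, in 5.62% and 52.0%. Kcnj2, an inward-rectifier potassium channel, was found in 1.69% and 31.2%. Sprr1a had no UMI in rule-low cells and UMIs in 0.962% of rule-high ones, so it hardly bore on the choice. These shares are what the rule used.

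Of the 5 type 2 markers, 4 were found in nearly every rule-low cell, and Lrg1 in fewer. Sftpc and Lamp3 are part of the rule. Sftpc, the gene of surfactant protein C at chr14:70520949-70524081 on the minus strand (GENCODE M21, mm10), made up 7.47% of UMIs in the lowest rule-low cell, 19.2% in the median cell and 34.7% in the highest. Outside the Sftpc limit, non-type 2 epithelium reached 3.78%, so the 5% limit fell in a gap between that set and rule-low cells. Other sets came closer to the limit. Per 1000000 UMIs of a cell, Sftpc reached 48656 in the fibroblast set and went down to 54980 in rule-high type 2 cells. Lamp3, a lamellar body membrane protein, had 246, 1635 and 5228 CPM (its UMIs over all UMIs of the cell, times 1000000) in the lowest, median and highest rule-low cell. Abca3 had 0, 996 and 2326 CPM, and was detected in 173 of 178 cells. Lcn2, which encodes the iron-trapping protein lipocalin 2, had 0, 687 and 6166 CPM and was detected in 163 cells. Lrg1, a secreted leucine-rich glycoprotein, was the uneven marker, with a median of 173 CPM, a highest value of 3773 CPM and UMIs in 116 cells. In the fibroblast set, at a median of 7496.5 UMIs, Lrg1 was found in 0.785% and Lcn2 in 2.29% of cells, far below the 65.2% and 91.6% of rule-low cells at a median of 8151.5 UMIs.

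Against non-type 2 epithelium, rule-low type 2 cells were far higher in surfactant, lamellar body, fatty acid and MHC class II genes and lower in genes of alveolar type 1, ciliated and secretory airway cells. Of 10003 genes whose UMIs in both sets together reached 30, 1073 (10.7%) were higher by 2-fold or more and 2687 (26.9%) were at 0.5-fold or below. The median ratio over all genes was 0.824. A single gene took a large part of each total, Sftpc with 198798 CPM of the rule-low cells and Scgb1a1 with 175717 CPM of non-type 2 epithelium. With Sftpc left out of every total, 1652 genes were higher by 2-fold or more and 2097 at 0.5-fold or below, a split of 44.1% higher in place of 28.5%, and with ratios divided by their median the counts were 1547 and 2158 (41.8% higher). With both Sftpc and Scgb1a1 left out, an alternative chosen after seeing the data, they were 1128 and 2614 (30.1% higher), close to the values over all UMIs. The ratios below use all UMIs, and leaving Sftpc out multiplies each of them by 1.25.

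**Figure D2:**
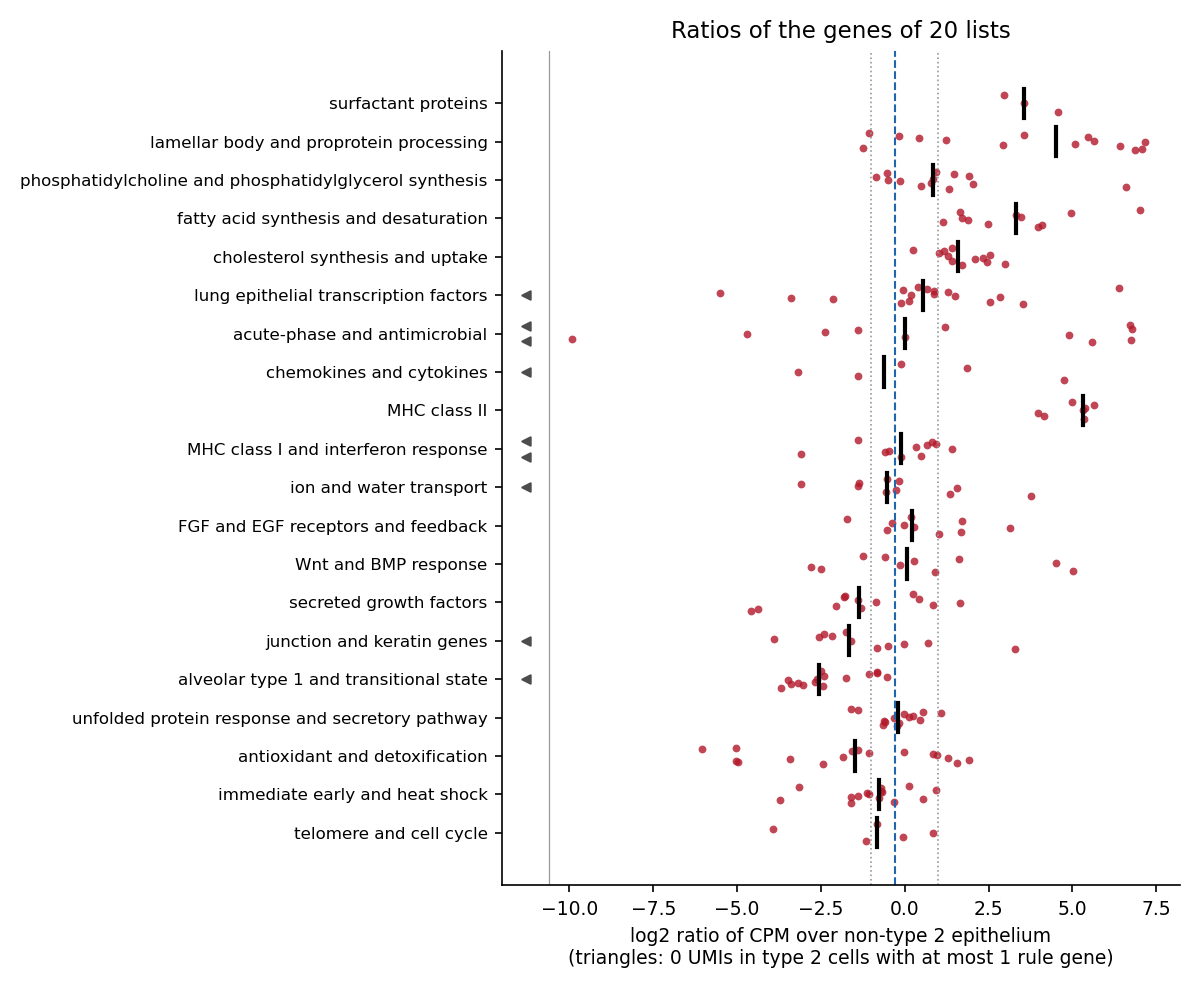
Each point is 1 gene of 20 lists, placed by the log2 ratio of its CPM in rule-low type 2 cells over non-type 2 epithelium. Black bars are list medians, the dashed line is the median of all genes (-0.28 on the log2 scale), dotted lines mark ratios of 2 and 0.5, and triangles left of the grey line are genes with 0 UMIs in rule-low cells. MHC class II, surfactant, lamellar body and fatty acid genes lie on the right, and alveolar type 1 genes on the left.

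The surfactant proteins other than Sftpc were all higher. Sftpa1, a collectin that binds microbes and organises surfactant, had 14133 CPM (13941 to 14327) in rule-low type 2 cells and 1214 CPM in non-type 2 epithelium, 11.6-fold higher. Sftpb, the hydrophobic protein that spreads the lipid film, had 10512 and 441 CPM, 23.8-fold higher. Sftpd, the other collectin, had 2673 and 342 CPM, 7.82-fold higher (7.36 to 8.32). In the fibroblast marker set these genes had 57.6, 39.6 and 10.5 CPM, a gauge of free RNA that lies below the levels in non-type 2 epithelium.

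Lamellar body and processing genes followed. Of 14 measured genes of that list, leaving out Lamp3, which chose the cells, 10 were higher by 2-fold or more and 2 at 0.5-fold or below. The median ratio was 22.6. With Sftpc left out of the totals, the counts were 10 and 0. The 10 include Hc, the complement C5 gene, at 116-fold. Slc34a2, the phosphate carrier that clears phosphate released from surfactant lipid, had 5616 CPM in rule-low type 2 cells and 41.5 CPM in non-type 2 epithelium, 135-fold higher (116 to 158). Napsa, a protease that matures surfactant protein B, had 2426 and 28.3 CPM, 85.9-fold higher. Lpcat1, which remodels phosphatidylcholine into its surfactant form, had 1740 and 39.1 CPM, 44.5-fold higher. Ctsh, another processing protease, was shared with airway cells (662 and 494 CPM), and Gprc5a was lower at 0.424-fold. Lyz2, a lysozyme, had 25740 and 179 CPM, 144-fold higher (134 to 155). Its neighbour on chromosome 10, Lyz1, had 2139 and 43.0 CPM. Whether reads from these near-identical genes were divided between them was not tested.

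Genes of lipid synthesis were higher as a group. In the list of fatty acid synthesis and desaturation, 11 of 11 measured genes (of 14 listed) were higher by 2-fold or more, with a median ratio of 9.90. Scd1, the desaturase that makes monounsaturated fatty acids, had 4484 CPM in rule-low type 2 cells and 35.0 CPM in non-type 2 epithelium, 128-fold higher (109 to 152). Fasn, fatty acid synthase, had 840 and 27.1 CPM, 31.0-fold higher, and Elovl1, a fatty acid elongase, had 1363 and 79.7 CPM, 17.1-fold higher. The transcription factor Srebf1, which drives such genes, was 3.28-fold higher (113 and 34.3 CPM). In the cholesterol list, 11 of 12 measured genes were higher by 2-fold or more at a median of 2.98, from the sterol demethylase Cyp51 (7.95-fold) and the isoprenoid enzyme Idi1 (5.84-fold) down to Sqle (1.18-fold). Phospholipid synthesis was less uniform, with 5 of 13 measured genes 2-fold higher or more at a median of 1.80, or 8 of 13 with Sftpc left out of the totals. Fabp5, a fatty acid binding protein, had 2094 and 21.5 CPM in the same order, 97.4-fold higher, while Pcyt1a, the rate-limiting enzyme of phosphatidylcholine synthesis, had 41.9 and 60.2 CPM.

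MHC class II genes, which present antigen to helper T cells, stood far higher than in the other epithelium. A mixed list of class I and interferon genes had a median near that of all genes. All 7 listed class II genes were higher by 2-fold or more, with a median ratio of 39.7. Cd74, the invariant chain, had 4004 CPM in rule-low type 2 cells and 127 CPM in non-type 2 epithelium (31.5-fold), H2-Aa had 985 and 23.7 CPM (41.6-fold), and the master regulator Ciita had 29.5 and 0.725 CPM. In the alveolar type 1 marker set Cd74 had 384 CPM, and in the ciliated, club and fibroblast sets 65.7, 69.5 and 34.0 CPM. Of 6 leukocyte markers, Ptprc was at 0 by the rule, Coro1a, Laptm5 and Tyrobp also had 0 UMIs, and the list summed to 4.12 CPM in rule-low cells and 60.1 CPM in non-type 2 epithelium. Of 13 class I and interferon genes, 1 was higher by 2-fold or more (H2-K1, 2.68-fold) and 4 were at 0.5-fold or below. With Sftpc left out of the totals, 3 were higher by 2-fold or more. The median ratio was 0.922, or 1.15 with Sftpc left out. The 4 low genes were the interferon genes Ifit1, Isg15, Ifitm3 and Ifit3. The class I genes B2m and H2-D1 stood at 1.40 and 1.76-fold, and Psmb9, Tap1 and Psmb8 at 1.26, 1.58 and 1.90-fold.

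Defence genes divided between alveolar and airway cells. Of 13 measured acute-phase and antimicrobial genes, 6 were higher by 2-fold or more and 6 at 0.5-fold or below. Lrg1 had 476 CPM in rule-low type 2 cells and 4.35 CPM in non-type 2 epithelium, 109-fold higher (68.7 to 186). Lcn2 had 904 and 8.45 CPM, 107-fold higher, and Il33, a nuclear alarmin cytokine, had 403 and 3.86 CPM, 104-fold higher. Chil1, a chitinase-like protein, had 1705 and 35.5 CPM, 48.0-fold higher. On the other side were genes of secretory airway cells, among them Bpifa1, an airway surface protein with 2.74 and 2642 CPM, and the acute-phase gene Hp at 0.381-fold (694 and 1822 CPM). Among cytokines, Cxcl15, the chemokine also called lungkine, had 7630 and 283 CPM, 27.0-fold higher, while Cxcl17 was lower at 0.109-fold (33.6 and 308 CPM).

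Among regulators, 6 of 18 measured transcription factors were higher by 2-fold or more (8 with Sftpc left out of the totals) and 4 at 0.5-fold or below, with a median ratio of 1.45. Those 6 include Tcf21 (2.84-fold), which had UMIs in only 5 rule-low cells, with 73.3% of them in a single cell. Of 10 measured FGF and EGF receptor and feedback genes, 4 were higher by 2-fold or more and 1 at 0.5-fold or below, with a median ratio of 1.17. Etv5, an ETS factor downstream of FGF signalling, had 487 CPM in rule-low type 2 cells and 5.80 CPM in non-type 2 epithelium, 84.0-fold higher (56.0 to 132), and Fgfr2, the epithelial FGF receptor, had 283 and 32.4 CPM, 8.76-fold higher. The feedback inhibitors Spry2 (3.29-fold), Errfi1 (3.18-fold) and Spry1 (2.02-fold) were the other 3, and Egfr was lower at 0.306-fold. Cebpa was 7.13-fold higher (250 and 35.0 CPM) and Nkx2-1 1.85-fold (305 and 165 CPM), while Foxa1 (57.6 and 59.7 CPM) and Foxa2 (86.5 and 78.7 CPM) stood near equal levels. In the Wnt and BMP list, 3 of 10 measured genes were higher by 2-fold or more and 3 at 0.5-fold or below (4 and 2 with Sftpc left out of the totals). Nkd1, a Wnt feedback inhibitor, had 82.3 and 3.62 CPM, the Wnt target Sp5 had 39.1 and 1.21 CPM, and Bmp4 had 202 and 65.7 CPM. Axin2, the usual readout of Wnt signalling, was sparse, with UMIs in 7.87% of rule-low cells, 0.328% of non-type 2 epithelium and 16.2% of the fibroblast set, so the part of free RNA in its level was not tested. The growth factor list was mostly lower, with 7 of 12 measured genes at 0.5-fold or below (6 of 12 with Sftpc left out of the totals), including Pdgfa (71.4 and 294 CPM) and Vegfa (154 and 538 CPM), 2 signals to stroma and vessels.

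Genes of the alveolar type 1 fate and of stressed transitional cells were lower than in non-type 2 epithelium. None of 16 listed genes was higher by 2-fold or more and 13 were at 0.5-fold or below (12 with Sftpc left out of the totals), with a median ratio of 0.172. Hopx, a type 1 homeodomain gene, had 215 CPM in rule-low type 2 cells and 2247 CPM in non-type 2 epithelium, and Cldn4, a claudin of transitional cells, had 0 and 128 UMIs. Krt8, a keratin of that state, had 213 and 1138 CPM, 0.187-fold, and Lgals3 had 84.4 and 513 CPM, 0.165-fold. Krt8 was still detected in 73.0% of rule-low cells. Its ratios over the alveolar type 1, ciliated and club sets were 0.288, 0.128 and 0.366. Ndnf, of the same list, was at 0.0232-fold of the alveolar type 1 set, but 1.62-fold of the ciliated and 9.51-fold of the club set. Ager, usually used as a type 1 marker, was an exception in breadth, with 1700 CPM in rule-low type 2 cells against 18929 CPM in the alveolar type 1 set, 558 in the ciliated, 201 in the club and 64.0 in the fibroblast set. Ager is among the 11 markers that chose the alveolar type 1 set, so its level there is partly fixed by that choice. With each cell thinned to 2000 UMIs, Ager was detected in 95.4% of rule-low type 2 cells (98.9% unthinned) and 5.64% of fibroblast-set cells (12.8% unthinned), so its level in type 2 cells lay above that of free RNA.

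Most detoxification and junction genes were lower, and fewer of the stress genes. Of 16 antioxidant and detoxification genes, 3 were higher by 2-fold or more (Cat at 2.92-fold, Gclc at 2.43-fold and Hmox1 at 3.77-fold) and 10 were at 0.5-fold or below, among them the club cell genes Cyp2f2 (67.9 and 2225 CPM) and Aldh1a1 (18.5 and 1232 CPM). With Sftpc left out of the totals, Gpx1 and Gpx3 joined the higher genes. Of 15 immediate early and heat shock genes, 7 were at 0.5-fold or below and none 2-fold higher or more, with Fos at 1638 and 3584 CPM, Ier3 at 105 and 933 CPM and Atf3 at 368 and 1120 CPM. With Sftpc left out, the counts were 5 and 1. Of 12 junction and keratin genes (Epcam, which chose the comparison set, left out), 7 were at 0.5-fold or below and only Muc1, a cell surface mucin, was higher by 2-fold or more (706 and 72.0 CPM), or 2 with Sftpc left out. The unfolded protein response genes stayed near the background, with 1 of 14 2-fold higher or more, 2 at 0.5-fold or below and a median ratio of 0.867, which was 1.08 with Sftpc left out.

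Some genes were higher than in each kind of other epithelium. Against the alveolar type 1 set, 12.1% of measured genes were higher by 2-fold or more and 30% at 0.5-fold or below. Against the ciliated set these shares were 11.4% and 35.6%, and against the club set 46.5% and 6.14%. Of 10001 genes measured in this way, 492 (4.92%) were higher by 2-fold or more than in each of those 3 sets, and 378 (3.78%) were at 0.5-fold or below of each. The 15 largest ratios of that kind over non-type 2 epithelium belonged to Sgpp2, Itih4, Nrn1, Lyz2, Slc34a2, Scd1, Hc, Lrg1, Lcn2, Lrp2, Tinag, Il33, Egfl6, Fabp5 and Acoxl. Sgpp2, a phosphatase of sphingosine 1-phosphate, had 186 UMIs (128 CPM) in rule-low cells and 1 UMI in non-type 2 epithelium, a 528-fold ratio with a counting interval of 93.7 to 20980. Hc, which encodes complement C5, had 1187 and 29 UMIs, 116-fold higher (80.5 to 174), and Lrp2, the endocytic receptor megalin, had 280 and 2.66 CPM, 105-fold higher. Acoxl, a relative of peroxisomal acyl-CoA oxidase, had 322 and 3.38 CPM, 95.4-fold higher (56.3 to 176). Sgpp2 had no UMI in any of the 3 epithelial sets, and Itih4 and Nrn1 had none in 2 of them. Il33 also had 68.2 CPM in the fibroblast set, the highest of the 15 there after Lyz2.

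The size of these ratios depended on how clean the comparison set was. When that set was chosen by Epcam and Sftpc alone, it held 556 barcodes, without the limit on Col1a2 and Ptprc, and the 15 ratios lay between 23.8 (Itih4) and 50.2 (Sgpp2), still far above 2. The ratios of Sftpa1 and Sftpb were then 8.57 and 16.4.

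**Figure D3:**
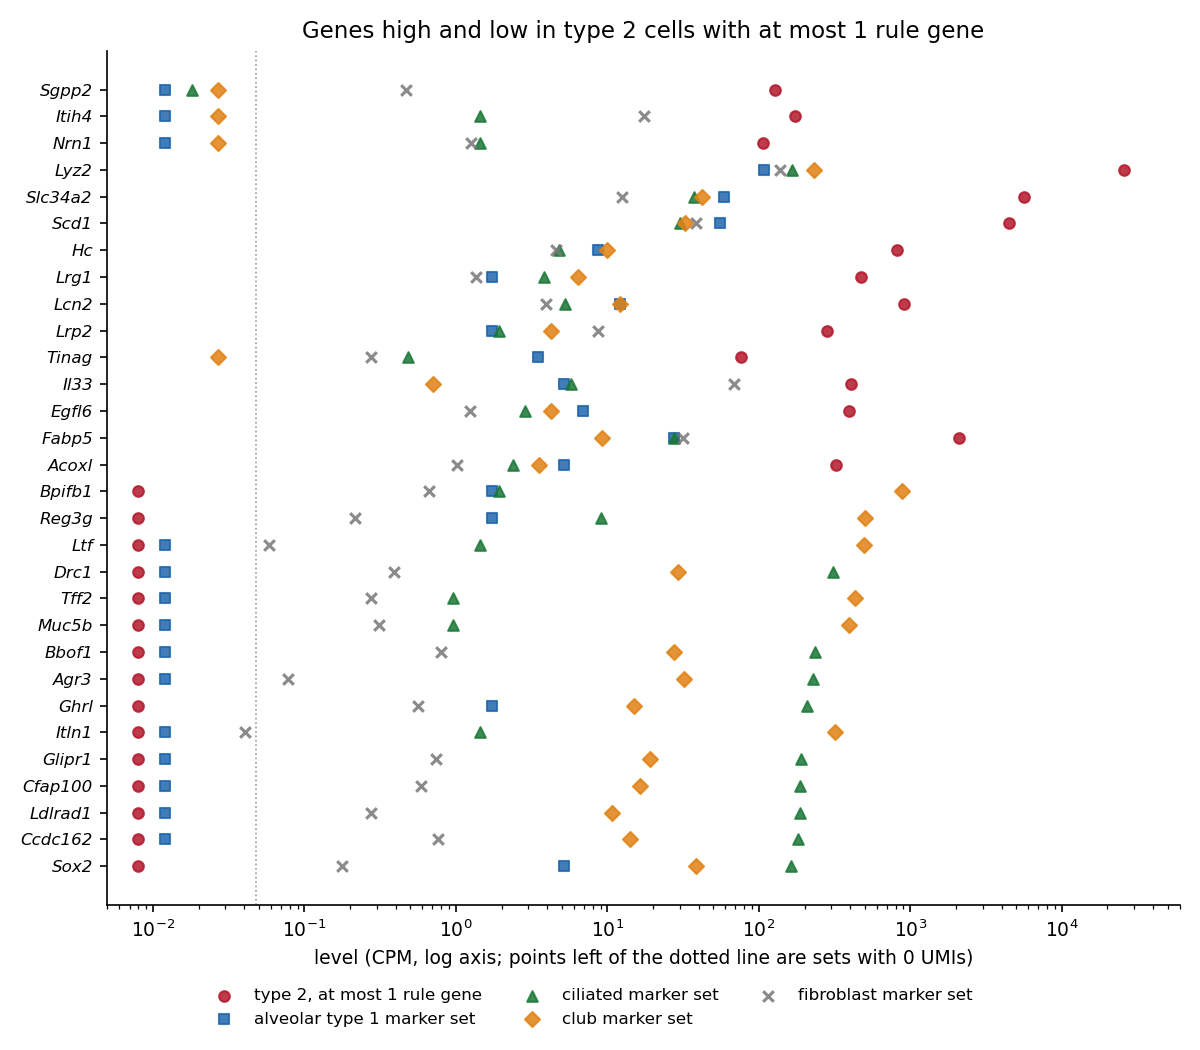
Levels in CPM (log axis) of the 15 genes with the highest and the 15 with the lowest ratios over non-type 2 epithelium, in rule-low type 2 cells and in 4 marker sets of other cells. The upper genes are highest in rule-low type 2 cells in each case, and the lower genes have 0 UMIs there and belong to the ciliated or the club set; points left of the dotted line are sets with 0 UMIs.

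The genes lowest in rule-low type 2 cells were those of airway cells. The rule for low genes met 33 genes with 0 UMIs in the 178 cells, and the 15 with most UMIs in non-type 2 epithelium are named. Bpifb1, Reg3g, Ltf, Tff2, Muc5b and Itln1, secreted by airway secretory cells, had 316 to 879 CPM in the club set. Drc1 and Cfap100 belong to the ciliary axoneme and Bbof1 to the basal body, and with Agr3, Ghrl, Glipr1, Ldlrad1, Ccdc162 and the airway transcription factor Sox2 they had 162 to 308 CPM in the ciliated set. Counting 3 UMIs over the set as the floor for a count of 0, Bpifb1 was at least 146-fold lower than in non-type 2 epithelium and Sox2 at least 46.4-fold lower.

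Against rule-high type 2 cells the differences were small, and the cholesterol and fatty acid lists had medians above 1. The acute-phase list had a median ratio of 1.10, with 7 of 10 measured genes above 1, 4 intervals above 1 and 2 below. The junction and keratin list had a median of 0.780, with 2 of 11 measured genes above 1 and 8 intervals below 1. Of 10779 genes that reached 30 UMIs in both type 2 sets together, 109 (1.01%) were higher by 2-fold or more in rule-low cells and 538 (4.99%) at 0.5-fold or below, with a median ratio of 0.975. Most of these were sparse genes, since at a minimum of 100 UMIs 10 and 163 remained. Rule-low cells were shallower (median 8151.5 against 9609 UMIs), and with each cell thinned to 5000 UMIs, which kept 157 rule-low and 1205 rule-high cells, the counts were 95 and 503.

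Most genes of the cholesterol and fatty acid lists had higher levels in rule-low type 2 cells. Scd1 had 4484 CPM (4376 to 4594) in rule-low and 2767 CPM in rule-high type 2 cells, 1.62-fold higher (1.58 to 1.66), and 1.63-fold (1.57 to 1.69) at equal depth. All 12 measured genes of the cholesterol list had ratios above 1, at a median of 1.27, and for 8 of them the counting interval lay above 1. Of all 10779 genes, 45.5% had ratios above 1 and 4.5% had intervals above 1, or 5.08% of the 8333 with at least 100 UMIs. Intervals narrow with UMIs, so abundant genes leave 1 more often. In the lamellar body list 6 of 15 measured genes also had intervals above 1, but 4 had intervals below 1 and the median ratio was 0.990. In the transcription factor list 5 of 17 had intervals above 1 and 1 below, and that list includes Tcf21, found in few rule-low cells. The largest ratios of the cholesterol list were Lss (1.60-fold), Msmo1 (152 and 96.8 CPM, 1.57-fold) and Cyp51 (106 and 71.9 CPM, 1.47-fold), 3 enzymes of the sterol pathway. In the fatty acid list 12 of 13 measured genes had ratios above 1 and 7 had intervals above 1, among them Fasn (1.27-fold), Scd2 (1.25-fold), Acly (1.24-fold) and Elovl1 (1.23-fold). At equal depth these 4 genes stood at 1.36, 1.25, 1.16 and 1.16-fold. Elovl5 and Me1 were then at 0.989 and 0.974-fold, and the sparse genes Thrsp and Mlxipl at 0.731 and 0.349-fold. Acat2, which makes the acetoacetyl-CoA that enters sterol synthesis, was 1.54-fold higher (68.6 and 44.7 CPM). Mfsd2a, a lysophospholipid transporter, was 2.01-fold higher (62.4 and 31.1 CPM; interval 1.58 to 2.53) and 2.24-fold at equal depth. Fabp5 was 1.35-fold higher, Lrg1 1.67-fold (476 and 285 CPM) and Il33 1.47-fold (403 and 275 CPM).

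The levels were also graded over the number of rule genes. Scd1 had 4500, 4481, 3639, 2890, 2557, 2321 and 1673 CPM in cells with 0 to 6 rule genes. Over the same steps Mfsd2a had 73.5, 60.1, 49.8, 36.8, 20.3, 25.2 and 12.5 CPM, lower at each step but 1. Sftpa1 went the opposite way, with 11748, 14647, 17076, 17954, 19086, 21361 and 24782 CPM. Within rule-low cells the steps at 0 and 1 rule genes did not differ beyond the counting intervals for Scd1 (4245 to 4767 and 4362 to 4602 CPM), but did for Sftpa1.

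**Figure D4:**
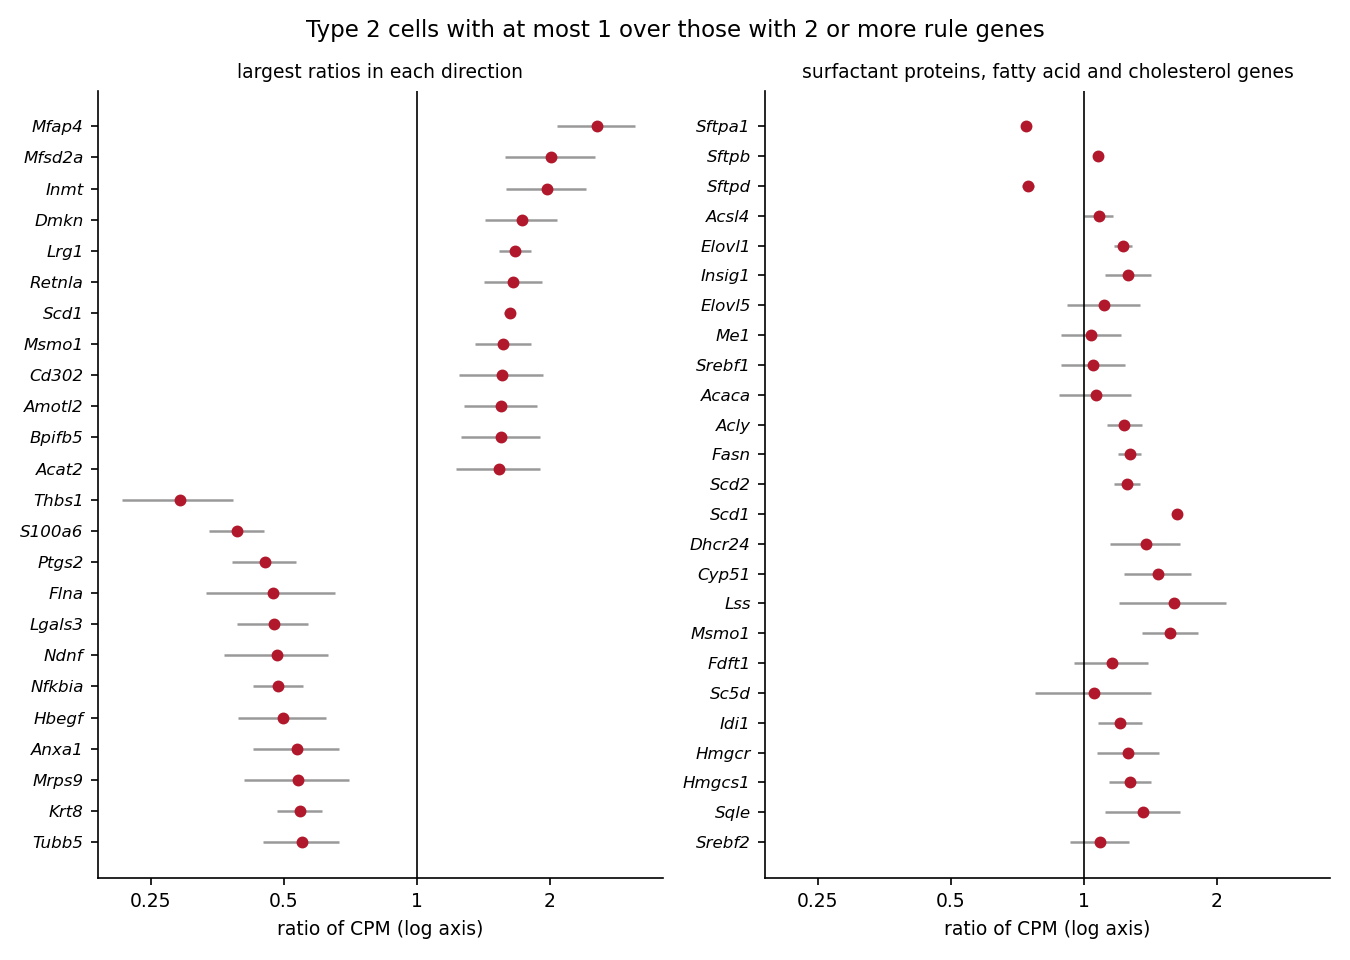
Ratios of CPM in rule-low over rule-high type 2 cells with 95% counting intervals (log axis), for the 12 highest and 12 lowest genes by the rule for named genes (left) and for surfactant protein, fatty acid and cholesterol genes with at least 100 UMIs (right). Points to the right of 1 are higher in rule-low cells: the cholesterol genes drawn all lie there, while Sftpa1 and Sftpd lie left of 1.

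Surfactant collectins were lower in rule-low cells although Sftpc was not. Sftpa1 had 14133 CPM in rule-low and 19116 CPM in rule-high type 2 cells, 0.739-fold (0.729 to 0.750), and Sftpd 2673 and 3574 CPM, 0.748-fold (0.723 to 0.773). Sftpb had 10512 and 9766 CPM, 1.08-fold, and Sftpc 198798 and 189322 CPM, 1.05-fold. At equal depth the Sftpa1 and Sftpd ratios were 0.743 and 0.772. Ctsh was also lower (0.677-fold), while Slc34a2, Lpcat1 (1.16-fold) and Abca3 (1.14-fold) were slightly higher and MHC class II genes stood at a median ratio of 0.962.

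The 12 lowest ratios belonged to genes of several kinds. Thbs1, the matrix protein thrombospondin 1, had 35.0 CPM in rule-low and 120.5 CPM in rule-high type 2 cells, 0.290-fold (0.215 to 0.384). S100a6, a calcium-binding protein, had 140 and 358 CPM, 0.391-fold, and Ptgs2, the inducible cyclooxygenase, had 104 and 230 CPM, 0.453-fold (0.382 to 0.533). Among transitional-state genes Lgals3 was at 0.474-fold, Ndnf at 0.483-fold and Krt8 at 0.544-fold (213 and 391 CPM), but the whole alveolar type 1 and transitional list had a median ratio of 0.922, and Ager was higher (1.19-fold). Nfkbia, a feedback inhibitor and target of NF-kappa B, had 165 and 340 CPM, 0.486-fold (0.425 to 0.554), and Hbegf, an EGF receptor ligand like the rule gene Areg, had 56.3 and 113 CPM. The neutrophil chemokine genes Cxcl1 and Cxcl2 had 9 and 1 UMIs over the rule-low cells, 0.135-fold and 0.0402-fold of rule-high cells. They were found in a minority of either set, Cxcl1 in 3.93% of rule-low and 16.4% of rule-high cells and Cxcl2 in 0.562% and 5.29%. In rule-high cells 10 cells held 23.1% of the Cxcl1 and 45.1% of the Cxcl2 UMIs. Of 15 immediate early and heat shock genes, 13 had ratios at or below 1 and 8 had intervals below 1, against 54.5% and 5.93% of all genes (6.66% of those with at least 100 UMIs for such intervals), with Egr1 at 0.830-fold and Jun at 0.851-fold. The filamin gene Flna, the annexin gene Anxa1, the mitochondrial ribosomal protein gene Mrps9 and the tubulin gene Tubb5 completed the 12 lowest, at 0.472 to 0.550-fold.

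Proliferation genes were sparse in the rule-low set. The 5 proliferation markers summed to 10.3 CPM in rule-low and 59.0 CPM in rule-high type 2 cells. Cdk1, the mitotic kinase, had 0 UMIs in rule-low cells and was detected in 1.60% of rule-high cells. Taking 3 of 178 cells as the limit for a count of 0, and not a Clopper-Pearson interval, allows a share with a UMI of up to 1.69%. Mki67 was detected in 1.12% of rule-low and 2.81% of rule-high cells. At equal depth Cdk1 had 0 and 44 UMIs in the same order, a ratio of 0 with an upper limit of 0.671. In rule-high cells 93.1% of the Cdk1 UMIs lay in 10 cells, so that interval, which treats UMIs as independent, is too narrow.

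A few genes that stood higher in rule-low cells rested on single cells. Mfap4 and Inmt, markers of fibroblasts, were among the 12 highest ratios to rule-high cells, 2.55-fold (86.5 and 33.9 CPM) and 1.97-fold (78.9 and 40.1 CPM). A single cell held 55.6% of all Mfap4 UMIs of the set, and a single cell held 33.0% of the Inmt UMIs. Without the barcodes that Scrublet called doublets (1 rule-low and 14 rule-high cells), the ratios were 1.14 and 1.33. The fibroblast list summed to 226 CPM in rule-low cells, 137 in rule-high cells, 132 in non-type 2 epithelium and 30972 in the fibroblast set, with Col1a2 at 0 by rule. The per-cell median of the list was 105 CPM in rule-low and 93.9 in rule-high cells. Retnla (1.65-fold) and Dmkn (1.73-fold) were likewise concentrated, with 78.7% and 80.0% of UMIs in 10 cells, whereas the 10 richest cells held 18.0% of Scd1 and 32.8% of Lrg1 UMIs. In 579 of 2005 type 2 cells (28.9%) the Col1a2 limit was what removed the cell, and 39.0% of those had a single Col1a2 UMI.

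Within the rule-low set, the 15 named genes that varied most from cell to cell were of 2 kinds, 8 found in a minority of cells and 7 found in nearly all. In 157 cells thinned to 5000 UMIs (21 shallower cells were left out), the variance over the mean, which is 1 for pure counting noise, had a median of 1.06 over 2837 genes and exceeded 2 in 82. Sftpc, which chose the cells, had a ratio of 69.1. Lyz1 had the highest ratio of the 15 named genes, 60.3, with UMIs in 31.8% of cells and 54.6% of its UMIs in 10 cells; in the fibroblast set it had 10.3 CPM. Lyz2, its paralog, was present in every cell at 44.8 to 201 UMIs (5th to 95th percentile) and a ratio of 19.4. Sftpa1 ranged over 29.8 to 123 UMIs with a ratio of 11.7 and Scd1 over 3 to 52.2 UMIs with a ratio of 11.2, so both genes that differed between the type 2 sets also varied within the rule-low one. Malat1, a nuclear noncoding RNA, had a ratio of 39.6. Cxcl15, Tmsb4x and Fos had ratios of 7.30, 5.57 and 5.45 and were found in nearly every cell. Retnla, Mfap4, Tuba1a, Meg3, Dmkn, Hopx and Tppp3 had UMIs in 9.55 to 39.5% of cells, with 47.7% or more of their UMIs in 10 cells. Mfap4, Tuba1a and Meg3 had 86.5, 74.8 and 50.8 CPM in rule-low cells, against 2481, 1218 and 397 CPM in the fibroblast set. Tppp3, a ciliated marker, had 152 and 184 CPM in the same order, while Retnla, Dmkn and Hopx were lower in the fibroblast set. The part of RNA from other cell types in these values was not tested. Rank correlations among named genes over these cells, which share 1 library, lay between -0.374 (Lyz1 and Lyz2) and 0.318 (Retnla and Dmkn), weak values in sparse counts. A division of reads between Lyz1 and Lyz2 was not tested.

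**Figure D5:**
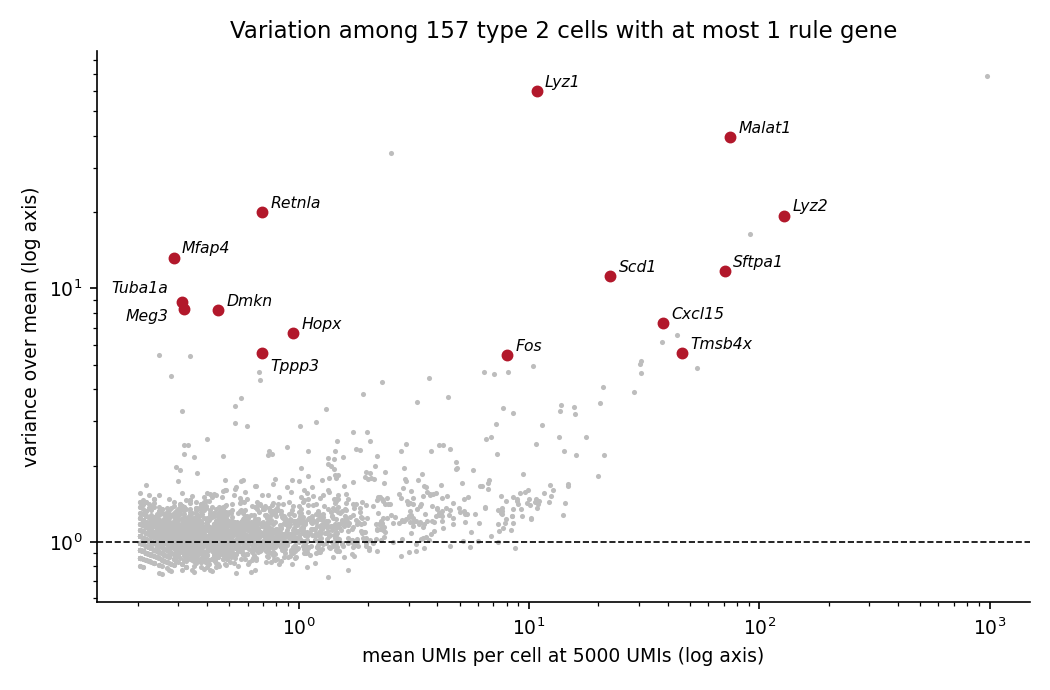
Variance over mean against mean UMIs per cell (both log axes) for genes measured in 157 rule-low type 2 cells thinned to 5000 UMIs. The dashed line at 1 is counting noise, red points are the 15 named genes, and unnamed grey points include Sftpc and other genes that the rule for named genes leaves out.

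The reporter transcripts were detected in part of the cells. Egfp, made after recombination, had UMIs in 48.3% of rule-low and 48.3% of rule-high type 2 cells, 32.1% of non-type 2 epithelium and 62.9% of the fibroblast set. Its level was 89.2, 79.3, 40.8 and 1424 CPM in the same order. TdTomato, made before recombination, had UMIs in 17.4, 27.0, 32.5 and 9.04% of the same sets. The part of free Egfp RNA in the type 2 values was not tested.

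The authors' deposited table describes 17 clusters. Mean Sftpc counts in the authors' deposited table were 1504, 1201, 772 and 379 in clusters 5, 4, 14 and 17. In clusters 5 and 4 of the authors' deposited table the log2 fold changes were 2.57 and 2.61 for Chia1, 2.66 and 2.38 for Cox6a2 and 2.26 and 2.88 for Myh7. Areg, Cftr and Kcnj2 had log2 fold changes of 1.51, 1.96 and 2.01 in cluster 5 and 2.72, 3.09 and 2.94 in cluster 4 of the authors' deposited table, and Sprr1a had 0.46 and 2.88. The adjusted p given for Sprr1a in cluster 5 of the authors' deposited table was 0.558. In cluster 14 of the authors' deposited table the 7 rule genes had log2 fold changes of 0.71 to 1.40, with a mean Col1a2 count of 16.2.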

How the data were processed

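Single cells negative for CD45 and CD31 were profiled by droplet 3′ RNA sequencing. The submitters' processing notes name Cell Ranger 3.0.0 and build mm10. Their deposited matrix gives unnormalized UMI counts for each barcode (85746975 UMIs, 11118 barcodes, 31055 features with Egfp and TdTomato added). Aligner settings and annotation release were not stated in these sources. The authors' table has 3 columns a cluster, per the file headers: mean counts, whose scaling is not stated and which are used as a score, log2 fold changes and adjusted p-values. The labels name the kit as version 3 and the series design as version 3.1. No file maps barcodes to the 4 samples.

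The members and gene lists were chosen with earlier results of these data known. Summed counts were scaled to CPM, with exact Poisson intervals. Ratios have exact conditional binomial intervals and shares Clopper-Pearson intervals, checked on simulated data, and all cover counting error only. A gene was compared where both sets together held 30 UMIs or more. Named genes were the 15 highest (also 2-fold above each of the 3 epithelial sets) and 15 lowest ratios to non-type 2 epithelium, the 12 highest and 12 lowest to rule-high cells and the 15 most variable, besides list members. They needed 100 UMIs over both sets and 50 CPM, and ties at 0 were ordered by UMIs in non-type 2 epithelium, an order set after the data were seen. Mitochondrial and ribosomal genes, reporters and every gene that chose the cells, Sftpc included, were left out of the naming. Doublets were called with Scrublet (scanpy 1.11.5, expected rate 0.08), which marked 458 of 9391 barcodes (4.88%) and 1 of 178 rule-low cells, and were kept in the main values. Python 3.11.15, numpy 2.4.6, scipy 1.17.1, pandas 2.3.3 and matplotlib 3.10.9 were used. Coordinates are from GENCODE M21 on mm10. One gene of the lists is counted but not reported here.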

Additional observations from a re-analysis of the deposited data

How the results depend on the processing

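No paired analysis was possible because the 4 samples share 1 matrix and 1 group, and no barcode is tied to a sample; for the same reason no sample could be left out. The number of rule-low cells was 130 to 258 under the other limits on genes, mitochondrial share, Sftpc, Lamp3, doublets, Col1a2 and Ptprc, and 37 when none of the 7 rule genes was allowed. Against non-type 2 epithelium, the count of genes 2-fold higher or more was 1652 with Sftpc left out of the totals, 596 at a minimum of 100 UMIs and 2432 at a minimum of 1 UMI, and the count at 0.5-fold or below was 1680 and 6070 at those minimums, through the number of genes compared. Against rule-high type 2 cells the counts were 10 and 163 at a minimum of 100 UMIs. The remaining alternatives stayed within 1.5 times of the counts reported. Of the ratios of named genes, 81 values under the alternatives left their counting interval and 337 stayed inside it against non-type 2 epithelium, and 15 and 171 did so against rule-high cells, and none of those called 2-fold or more changed direction. Sgpp2 had no UMI in 2 of these alternatives' comparison sets and has no ratio there. Leaving out Sftpc and Scgb1a1 together, chosen after seeing the data, gave 1128 and 2614 genes. The depth of 178 cells limits genes under about 30 UMIs, and with 1 pooled sample no spread between animals is known.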
